A study of Mus musculus with 8 samples.

Results

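The genes described here are 10 textbook targets of the transcription factor p53, namely Mdm2, Ccng1, Bax, Bbc3, Pmaip1, Trp53inp1, Sesn2, Phlda3, Eda2r and Zmat3. They were followed in ureteric bud cells of newborn mice with and without Dot1l, which encodes a histone H3 methyltransferase. The members were found through the array's annotation, as every non-control probe whose systematic name is a RefSeq transcript of one of these genes. This gave 12 probes of 55681 on the array. Of these, 10 probes of 9 genes passed the filter on dim probes, among 31667 probes of 23343 genes or unnamed transcripts that passed in all.

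The series compared 4 knockout samples (KO), ureteric bud cells labelled DOT1-null in which Dot1 was conditionally deleted from Hoxb7-positive cells, with 4 wildtype samples (WT), whose genotype is labelled control. Hoxb7 is expressed in the ureteric bud lineage, and the labels give neither the Cre line, the floxed allele nor whether the controls carried either. All samples came from kidneys of C57BL/6 mice at postnatal day 0 and were sorted by flow cytometry for GFP. The design text calls them biological replicates and names no animals or litters. Each sample was labelled with Cy5 and hybridised on its own 2-colour array against Cy3-labelled RNA of WT replicate 3 (WT 3), so values are log2 ratios of Cy5 to Cy3 and WT 3 was set against itself.

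p53 is held at a low level by Mdm2, a ubiquitin ligase that marks it for degradation. When DNA damage or another stress frees p53 from Mdm2, it binds paired half-sites in its target genes and raises their transcription. The targets then feed back on p53, commit the cell to apoptosis or restrain growth. In the developing kidney the Mdm2 and p53 balance is known to matter for the ureteric bud, since loss of Mdm2 there frees p53 and stunts branching.

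Signal differed between the groups, with a median Cy5 intensity from 122 to 636 on KO arrays and from 93.5 to 107.5 on WT arrays. KO 3 was the brightest, and 7665 of its spots carried a quality flag, against 175 to 216 on each of the other 7 arrays. The slide held the KO arrays in one row and the WT arrays in its other row, and the effects of row and genotype cannot be told apart. All 14 listed markers of ureteric bud and collecting duct were well above background on all 8 arrays. Their median log2 difference was -0.18, with 10 of 14 below 0, against 54.1% of all genes at the brightest probe. None of the 14 passed limma's test at an adjusted p of 0.05. At an unadjusted p under 0.05, 1 was higher and 5 lower in KO (all genes: 10.7% and 13.9%). Relative to the mean of the WT arrays, the list median lay between -0.37 and -0.05 on KO arrays and between -0.06 and 0.10 on WT arrays. Hoxb7, the gene that marks the cells of the deletion, had -0.71 ± 0.08 (SE; limma adjusted p = 0.0638). Krt18, the 1 marker that was higher at an unadjusted p under 0.05, had 0.79 ± 0.19 (SE; limma adjusted p = 0.108). It had -0.01 with median centring in place of loess. Markers of other cells were also detected, including 5 of 5 nephron progenitor markers and 7 of 8 stroma markers on all arrays. Their median log2 difference was -0.69 for nephron progenitors, with 4 of 5 below 0, and -0.40 for stroma, with 8 of 8 below 0. Array by array, list medians were taken relative to the mean of the WT arrays. They ran from -0.92 to 0.03 on KO arrays and from -0.50 to 0.54 on WT arrays for nephron progenitors. For stroma they ran from -0.99 to 0.41 on KO arrays and from -0.76 to 0.34 on WT arrays. For the 7 measured leukocyte markers, of 8 listed, the median log2 difference was -0.39, with 7 of 7 below 0. Their list median lay between -0.53 and -0.32 on KO arrays and between -0.43 and 0.12 on WT arrays. In 4 of these 7, Lyz2, Coro1a, S100a8 and S100a9, every KO array was below every WT array, against 7.82% of all probes with complete values. The log2 differences of these 4 ran from -0.39 to -1.45. The others, Adgre1, Ptprc and Csf1r, had -0.23, -0.06 and -0.01 (limma adjusted p from 0.366 to 0.979). The part of these cells in the results below was not tested. In sorted bulk samples, fewer cells of a type and less RNA per cell cannot be told apart. Dot1l itself, the targeted gene, had 1 probe whose KO minus WT value of 0.18 ± 0.11 (log2, SE) did not pass (limma adjusted p = 0.341) and was -0.18 with median centring in place of loess. Without KO 2 and KO 3 it was 0.34, higher in KO (limma adjusted p = 0.0289). Whether that probe falls within the deleted exons is not stated by the labels, so it does not check them.

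The p53 targets had differences of both signs in KO cells, and none passed the test with all arrays. Pmaip1, Mdm2 and the brighter probe of Trp53inp1 had higher mean ratios in KO than in WT. Phlda3 and Bbc3 had lower ones. The other 4 measured genes differed less, as did the dimmer probe of Trp53inp1 (log2 difference -0.04). None of the 10 tested probes passed limma's test at an adjusted p of 0.05 over all 31667 probes, where 0.00632% of probes passed. At an unadjusted p under 0.05 there were 5 of the 10 probes, 3 higher and 2 lower in KO, against 23.8% of all probes (9.98% higher, 13.8% lower). The KO and WT values were fully separate for 3 of the 10 probes, 2 higher and 1 lower, against 11.4% of all probes with complete values (3.58% higher, 7.82% lower). Taken at the brightest probe of each gene, 4 members were above and 5 below 0, with a median log2 difference of -0.07, where all 23343 genes had a median of -0.02. The median size of the difference, without its sign, was 0.26 for the members and 0.16 for all genes.

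**Figure D1:**
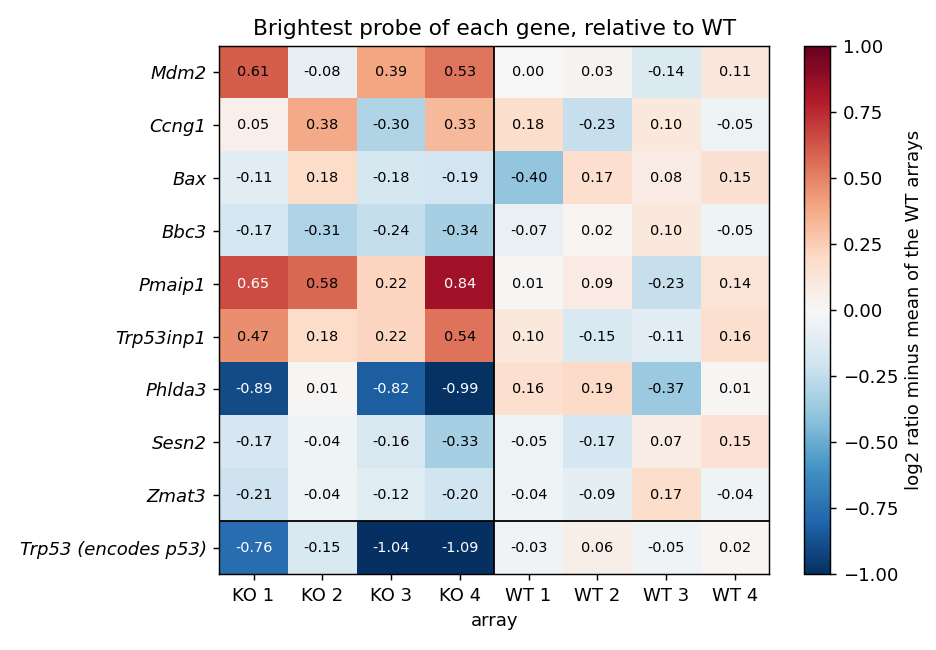
Log2 ratio of each measured p53 target, and of Trp53, on each array (columns, KO left of WT) minus the mean of the WT arrays, at the brightest probe of each gene. Phlda3 was between -0.99 and -0.82 on KO 1, KO 3 and KO 4 and at 0.01 on KO 2, and Trp53 was lowest on the same 3 arrays.

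KO 2 stood apart from the other 3 KO arrays for Mdm2, Bax and Phlda3, but not for Pmaip1, Bbc3 or the brighter probe of Trp53inp1. Without KO 2, limma called 4 of the 10 member probes, 3 higher (Pmaip1, Mdm2 and 1 probe of Trp53inp1) and 1 lower (Phlda3), where it called 21.1% of all probes (9.71% higher, 11.4% lower). KO 2 was singled out with earlier results of these data known. For Mdm2 and Phlda3 it was also the KO array nearest to WT, so their calls without it are no independent support. Without both KO 2 and KO 3, which earlier results of these data had shown to stand apart, limma called 4 member probes as well, 3 higher and 1 lower, against 23.5% of all probes (13.2% higher, 10.3% lower). With median centring in place of loess, where the median of all probes was -0.28, all 10 member probes had lower values than with loess, from -1.10 for Phlda3 to 0.40 for Pmaip1.

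Promoter sequences were available from RefSeq (build GRCm38.p6) for 7 of the 10 members, each from 250 bases before to 50 after the start site. Pmaip1, Trp53inp1 and Zmat3 had none and were not searched, nor was any sequence outside these windows. A single p53 half-site was searched for, on both strands at once since the consensus reads the same on either: 3 purines, a C, 2 letters that are each A or T, a G and 3 pyrimidines. Mdm2, Ccng1 and Bax, with 1 promoter each, held 1 match each. These were 3 of the 7 genes and 3 of their 9 promoters, and 8.36% of 32841 promoters of all genes held at least 1. No match was found in the windows of Bbc3, Sesn2, Phlda3 and Eda2r. The matches are shown with 25 bases on each side, in capitals, because p53 binds such half-sites, in pairs, and these are the searched members whose window holds one. They begin at base -186 from the start site in Mdm2 (chr10:117710910-117710969, minus strand), at -185 in Ccng1 (chr11:40755437-40755496, minus strand) and at -201 in Bax (chr7:45467065-45467124, minus strand).
Mdm2: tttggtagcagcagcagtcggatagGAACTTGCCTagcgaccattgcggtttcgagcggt
Ccng1: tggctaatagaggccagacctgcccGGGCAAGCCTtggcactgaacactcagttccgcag
Bax: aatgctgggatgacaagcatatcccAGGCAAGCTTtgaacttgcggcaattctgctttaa
A match describes the letters, not binding. Mdm2 had a positive, Ccng1 a small positive and Bax a small negative log2 difference, and none of the 3 passed the test.

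The feedback arm of the pathway is represented by Mdm2 and Ccng1. Mdm2 (NM_010786) had log2 ratios of 0.60, -0.09, 0.38 and 0.52 on KO 1 to KO 4, against -0.01, 0.02, -0.15 and 0.10 on WT 1 to WT 4. KO 1, KO 3 and KO 4 lay above all WT arrays, and KO 2 lay among them. The mean was 0.35 ± 0.31 in KO and -0.01 ± 0.11 in WT (SD, n = 4 each), a log2 difference of 0.36 ± 0.15 (SE), or 1.29-fold, with a 95% confidence interval from 0.03 to 0.69 (limma unadjusted p = 0.0340, adjusted p = 0.177). Without KO 2 it was 0.51 ± 0.10 (SE; limma adjusted p = 0.00777). The direction turned with median centring in place of loess (-0.11), a setting that moved the median of all probes to -0.28.

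Ccng1 (NM_009831) encodes cyclin G1, a cyclin induced by p53 that works with a phosphatase on Mdm2. Its log2 ratios were -0.16, 0.16, -0.52 and 0.11 on KO 1 to KO 4, against -0.04, -0.44, -0.11 and -0.27 on WT 1 to WT 4. KO 3 was the lowest of all 8 arrays and KO 2 the highest, so the groups overlapped throughout. The log2 difference of 0.11 ± 0.16 (SE; limma adjusted p = 0.688) had an interval from -0.24 to 0.47 and turned negative with median centring (-0.19) and with Cy5 alone (-0.35). It was 0.03 without KO 2 and 0.25 without KO 3.

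Among the apoptosis genes, the pair of BH3-only genes had differences of opposite sign, neither of which passed with all arrays. Pmaip1 and Bbc3 encode Noxa and Puma, small proteins that neutralise the survival proteins of the Bcl2 family. Pmaip1 (NM_021451) had log2 ratios of 0.75, 0.67, 0.31 and 0.93 on KO 1 to KO 4, against 0.10, 0.18, -0.14 and 0.23 on WT 1 to WT 4. All 4 KO arrays lay above all WT arrays, KO 2 included. Its mean was 0.67 ± 0.26 in KO and 0.09 ± 0.17 in WT (SD, n = 4 each), a log2 difference of 0.57 ± 0.14 (SE), or 1.49-fold, with an interval from 0.26 to 0.88 (limma unadjusted p = 0.00233, adjusted p = 0.108). Without KO 2 the log2 difference was 0.57 as well, with a larger SE of 0.15 (limma unadjusted p = 0.00502, adjusted p = 0.0309). The unadjusted p was thus larger than with all arrays. The adjusted p was smaller in a fit where 21.1% of all probes passed.

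Bbc3 (NM_133234) had log2 ratios of -0.58, -0.72, -0.65 and -0.75 on KO 1 to KO 4, against -0.48, -0.39, -0.31 and -0.46 on WT 1 to WT 4. Every KO array lay below every WT array, with a gap of small size but little spread. The mean was -0.67 ± 0.07 in KO and -0.41 ± 0.08 in WT (SD, n = 4 each). The log2 difference was -0.26 ± 0.08 (SE), a 1.20-fold lower ratio in KO, with an interval from -0.45 to -0.08 (limma unadjusted p = 0.00869, adjusted p = 0.121). It was -0.25 without KO 2 (limma adjusted p = 0.0712), and no array left out or setting tried brought an adjusted p under 0.05. The pooled SD within groups, 0.08, was smaller for 5.30% of all tested probes.

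Bax (NM_007527), the effector that opens the outer mitochondrial membrane, had log2 ratios of -0.97, -0.68, -1.04 and -1.05 on KO 1 to KO 4, against -1.26, -0.69, -0.78 and -0.71 on WT 1 to WT 4. WT 1 was the lowest of all arrays and KO 2 the highest. The log2 difference was -0.07 ± 0.14 (SE; limma adjusted p = 0.783), with an interval from -0.40 to 0.25. It was -0.16 without KO 2, -0.21 without WT 1, -0.55 with median centring and 0.09 after scaling between arrays, and none of these passed.

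Eda2r, a receptor of the tumour necrosis factor family that binds ectodysplasin A2, was not measured well enough to test. Both of its probes (NM_175540 and NM_001161433) were well above background on KO 3 alone, the brightest array. Cy5 intensity minus local background ran from 1 to 101 and from -8 to 118 on KO arrays, against -2.5 to 5 and -4 to 9 on WT arrays.

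**Figure D2:**
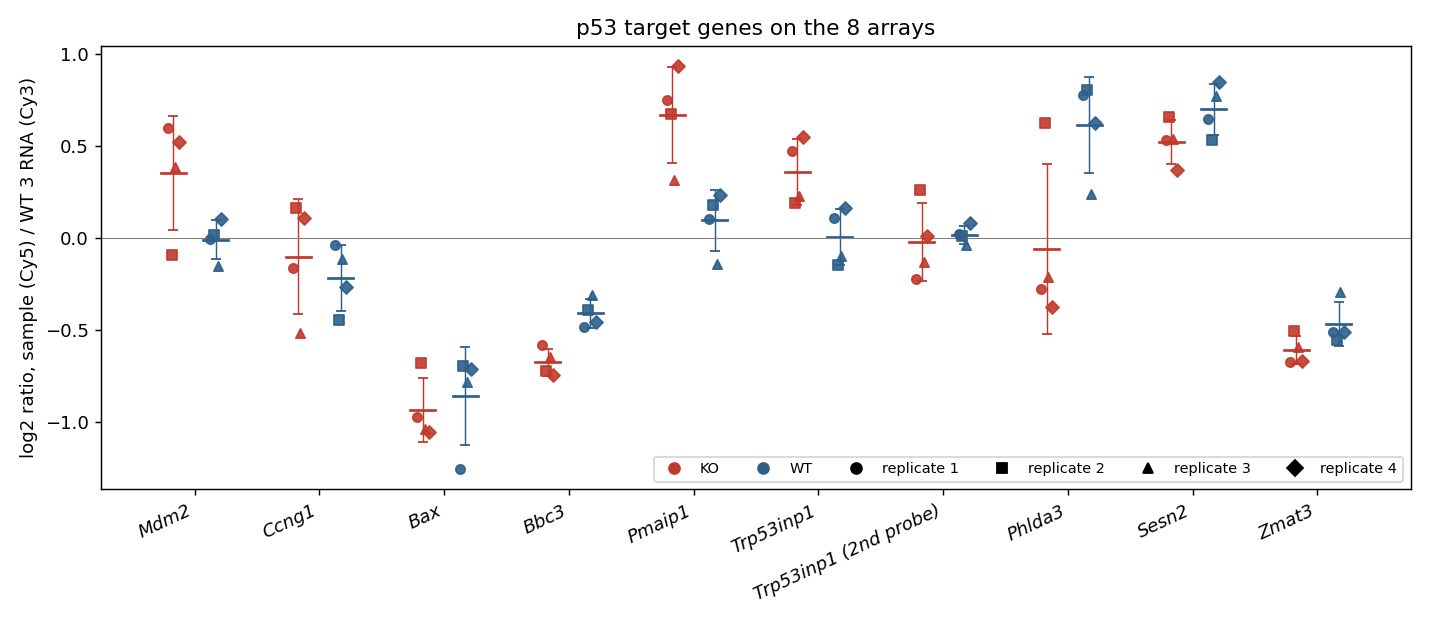
Log2 ratio of Cy5 (the sample) to Cy3 (WT 3 RNA) at the 10 tested probes, with KO in red left of WT in blue, a symbol for each replicate number, and the mean ± SD of each group (n = 4). The groups are fully separate for Bbc3, Pmaip1 and the brighter probe of Trp53inp1.

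The remaining members restrain growth or handle stress. Phlda3 (NM_013750) encodes a small protein that competes with the kinase Akt for membrane lipids. Its log2 ratios were -0.28, 0.62, -0.21 and -0.38 on KO 1 to KO 4, against 0.78, 0.80, 0.24 and 0.62 on WT 1 to WT 4. KO 1, KO 3 and KO 4 lay below all WT arrays, and KO 2 lay at the level of WT 4. The mean was -0.06 ± 0.46 in KO and 0.61 ± 0.26 in WT (SD, n = 4 each), and the pooled SD was larger than that of 92.6% of all tested probes. The log2 difference of -0.67 ± 0.22 (SE), a 1.59-fold lower ratio in KO, had an interval from -1.17 to -0.18 (limma unadjusted p = 0.0125, adjusted p = 0.130). Without KO 2 it was -0.90 ± 0.14 (SE; limma adjusted p = 0.00398), the largest difference among the members in either fit.

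Trp53inp1 encodes a stress protein that acts with p53 in the nucleus and in autophagy, and its 2 probes, both assigned to NM_021897, did not give the same result. The brighter probe had log2 ratios of 0.47, 0.19, 0.22 and 0.55 on KO 1 to KO 4, against 0.11, -0.15, -0.10 and 0.16 on WT 1 to WT 4. The KO arrays all lay above the WT arrays, KO 2 by the smallest margin. The log2 difference was 0.35 ± 0.12 (SE), with an interval from 0.09 to 0.61 (limma unadjusted p = 0.0126, adjusted p = 0.130), and 0.41 without KO 2 (limma adjusted p = 0.0373). At the dimmer probe the ratios were -0.23, 0.26, -0.13 and 0.01 on KO 1 to KO 4, against 0.02, 0.01, -0.04 and 0.08 on WT 1 to WT 4. There KO arrays lay on both sides of the WT arrays, and the log2 difference was -0.04 ± 0.11 (SE; limma adjusted p = 0.859), or 0.03 without KO 1 and -0.13 without KO 2. Cy5 intensity minus local background was 159 to 652 on KO arrays and 112.5 to 152.5 on WT arrays at the dimmer probe, and 884 to 1268 on KO arrays and 399.5 to 745 on WT arrays at the brighter one.

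Sesn2 (NM_144907) encodes a sestrin, which senses leucine and holds back the growth kinase complex mTORC1. Its log2 ratios were 0.53, 0.66, 0.53 and 0.37 on KO 1 to KO 4, against 0.65, 0.53, 0.77 and 0.84 on WT 1 to WT 4. Only KO 4 lay below every WT array. The log2 difference was -0.18 ± 0.10 (SE; limma adjusted p = 0.311), with an interval from -0.40 to 0.05. It was -0.22 without KO 2, -0.58 with median centring and 0.05 with Cy5 alone.

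Zmat3 (NM_009517), a zinc finger protein that binds RNA and acts on splicing, had log2 ratios of -0.67, -0.51, -0.59 and -0.67 on KO 1 to KO 4, against -0.51, -0.55, -0.29 and -0.51 on WT 1 to WT 4. KO 1, KO 3 and KO 4 were below all WT arrays, and KO 2 was level with 2 of them. The log2 difference was -0.14 ± 0.09 (SE; limma adjusted p = 0.352), with an interval from -0.34 to 0.06. It was -0.18 without KO 2, -0.43 with median centring and -0.05 after scaling between arrays.

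**Figure D3:**
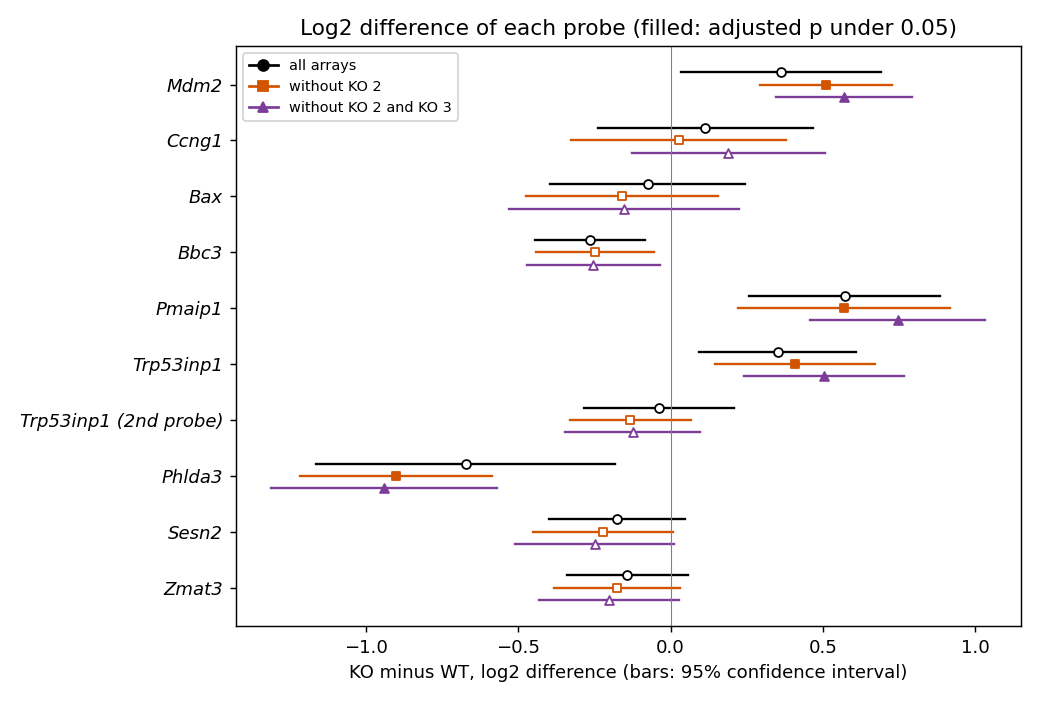
KO minus WT log2 difference of each tested probe with its 95% confidence interval, from all 8 arrays, without KO 2, and without KO 2 and KO 3, with filled symbols where the adjusted p over all probes was under 0.05. No symbol is filled with all arrays, and Mdm2, Pmaip1, the brighter Trp53inp1 probe and Phlda3 are filled in both other fits.

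Because WT 3 RNA lay in Cy3 on every array, each channel could be read alone after loess and quantile normalisation of the average intensities. The alternative called Cy5 alone elsewhere is a different processing, with quantile normalisation of Cy5 and no loess. This reading was chosen after the data were seen. The ratio of WT 3 to itself ran from -0.78 for Bax to 0.77 for Sesn2 and exceeded 0.5 in size for 2 of the 10 member probes and 7.29% of all kept probes, although both dyes held the same RNA. Samples are therefore compared here only by the difference between the groups. For Mdm2, KO minus WT was 0.44 ± 0.15 in Cy5 and 0.08 ± 0.07 in Cy3 (SE, log2 intensity). For Phlda3 it was -0.74 ± 0.25 in Cy5 and -0.07 ± 0.06 in Cy3. In these 2 genes the larger difference was in the channel that holds the sample, but neither Cy5 difference passed (limma adjusted p = 0.286 for both). The larger difference was in Cy5 for Bbc3 and Zmat3 too. For Ccng1, Bax and Sesn2 it was in Cy3, at -0.38, 0.06 and 0.19, against -0.26, -0.02 and 0.02 in Cy5.

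For Pmaip1 and the brighter probe of Trp53inp1 the ratio difference was divided between the channels when KO 3 was included. Pmaip1 had 0.26 ± 0.37 in Cy5 and -0.31 ± 0.27 in Cy3, and Trp53inp1 had 0.07 ± 0.31 and -0.28 ± 0.26 (SE). After this normalisation both channels of these probes were low on KO 3, the brightest array. For Pmaip1 they were at 7.27 in Cy5 and 6.96 in Cy3, against 8.76 to 9.14 and 8.09 to 8.21 on the other KO arrays. The measured Cy5 signal was not low. Cy5 intensity minus local background was at least 790.5 on every KO array for Pmaip1 and at most 492 on WT arrays. For Trp53inp1 these were 884 and 745. Without KO 3 the Cy5 difference was 0.68 ± 0.12 for Pmaip1 and 0.41 ± 0.13 for Trp53inp1, with Cy3 differences of -0.01 and 0.01. Neither Cy5 difference passed (limma adjusted p of 0.0929 and 0.153). Over the 10 member probes the Cy3 difference without KO 3 stayed between -0.12 for Ccng1 and 0.09 for the dimmer Trp53inp1 probe. Between KO and WT arrays, limma called 0 of all 31667 probes in Cy3 and 1 in Cy5. At an unadjusted p under 0.05 there were 5.25% in Cy3 and 16.3% in Cy5.

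**Figure D4:**
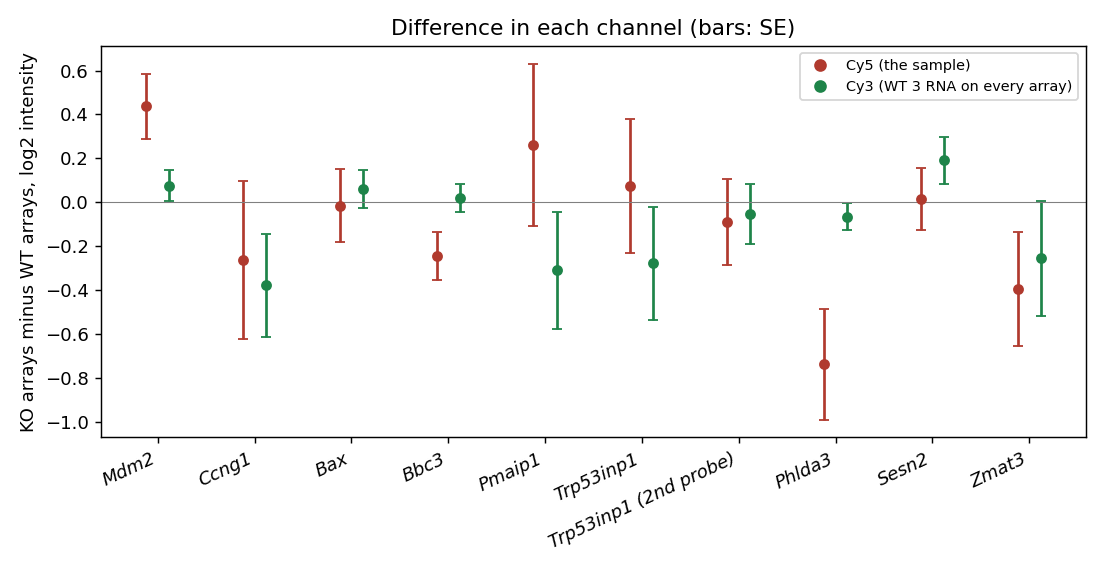
Difference in log2 intensity between KO and WT arrays for each tested probe, in Cy5 (red, the sample) and in Cy3 (green, WT 3 RNA on all arrays), with SE bars. Mdm2 is at 0.44 and Phlda3 at -0.74 in Cy5 with Cy3 near 0, whereas Pmaip1 and Trp53inp1 have wide bars in both channels when KO 3 is included.

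Upstream of the targets, the gene for p53 itself had a lower ratio in KO. Trp53 (1 tested probe, NM_011640) had log2 ratios of 0.01, 0.61, -0.27 and -0.33 on KO 1 to KO 4, against 0.73, 0.83, 0.72 and 0.78 on WT 1 to WT 4. All KO arrays lay below all WT arrays, with KO 2 the closest to them and the other 3 well below. The log2 difference was -0.76 ± 0.18 (SE), a 1.69-fold lower ratio in KO (limma unadjusted p = 0.00223, adjusted p = 0.108), and -0.96 without KO 2 (limma adjusted p = 0.00103). Mdm4, the partner of Mdm2 that masks the activation domain of p53, had -0.06 ± 0.12 at its brighter probe and 0.05 ± 0.09 at the other, with adjusted p of 0.766 and 0.741 (limma).

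Cdkn2a, whose alternative product p19ARF blocks Mdm2, was well above background on 4 of 4 KO arrays and on none of the WT arrays. The KO arrays were brighter, with 59.1% to 95.2% of all spots well above background, highest on KO 3, against 52.4% to 56.2% on WT arrays. The part of this in the detection of Cdkn2a was not tested. Cdkn2a passed the filter on dim probes only through the KO arrays, so no test or fold is given for it. Its log2 ratios were 0.28, 0.59 and 0.19 on KO 1, KO 2 and KO 4, with no value on KO 3, against -0.10, -0.18, -0.07 and -0.09 on WT 1 to WT 4. Sirt1, a deacetylase of p53, differed by 0.36 ± 0.13 (log2, SE; limma adjusted p = 0.140), or 0.07 with median centring. Rpl11, a ribosomal protein that binds Mdm2, had 0.30 ± 0.09 at its brightest probe and 0.11 and 0.13 at the others, and -0.63 at the brightest probe with median centring (limma adjusted p = 0.115 with loess). Of 23 listed p53 regulators, 21 were measured in both groups, which leaves out Cdkn2a, and none passed over all probes. Over the brightest probe of all genes 0.00857% passed, all lower. At an unadjusted p under 0.05, 5 of the 21 were higher and 1 lower in KO, against 10.7% of all genes higher and 13.9% lower (24.6% in all), and their median was 0.08. Without KO 2, limma called 4 higher and 1 lower, against 21.8% of all genes (10.3% higher, 11.5% lower).

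Other p53 targets were read at the brightest probe as well. Of 39 measured genes of 40 listed, none passed, 3 were higher and 5 lower at an unadjusted p under 0.05 (all genes: 10.7% and 13.9%), and the median was -0.02. Cdkn1a, the cell cycle inhibitor p21 and the best known p53 target, had log2 ratios of 0.64, 1.64, 0.88 and 1.29 on KO 1 to KO 4, against 0.84, 0.55, 0.82 and 0.89 on WT 1 to WT 4. Its highest value was on KO 2 and its KO 1 and KO 3 values lay among the WT arrays, and KO minus WT was 0.34 ± 0.20 (log2, SE; limma adjusted p = 0.325) and -0.12 ± 0.15 at its other probe, which had no value for KO 3. At the brighter probe it was 0.16 without KO 2 (limma adjusted p = 0.504) and 0.02 with median centring. Ddit4, an inhibitor of mTORC1 that hypoxia also induces, had 0.74 ± 0.27, the mitotic genes Psrc1 and Gtse1 -0.46 ± 0.14 and -0.25 ± 0.08, and Fdxr, a mitochondrial reductase, had -0.28 ± 0.11 (SE; limma adjusted p from 0.124 to 0.160). Of these 4, the groups were fully separate for Gtse1, and the fit of Fdxr had no value for KO 3. Without KO 2, limma called 2 of the 39, both lower, against 21.8% of all genes.

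Other genes of the mitochondrial apoptosis pathway were read beside Bax, Bbc3 and Pmaip1. In the list of Bcl2 family members and caspases, 20 of 21 genes were measured and none passed, with 1 higher and 5 lower at an unadjusted p under 0.05 (all genes: 10.7% and 13.9%) and a median of -0.10. Bak1, the other membrane effector beside Bax, had -0.50 ± 0.13, with KO arrays between -0.41 and 0.18 and WT arrays between 0.25 and 0.51. The BH3-only gene Bad had -0.42 ± 0.12, the effector-like gene Bok -0.42 ± 0.16, and the survival gene Bcl2, without a value for KO 3, -0.29 ± 0.10 (SE; limma adjusted p from 0.108 to 0.159). Without KO 2, limma called 4 of the 20 lower and none higher, against 11.5% of all genes lower and 10.3% higher, with Bak1 at -0.61, Bad at -0.53 and Bok at -0.59 among them.

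Pmaip1, Bbc3 and Sesn2 are also known to be raised by the Atf4 stress pathway, so its other targets were read beside them. Of 17 measured Atf4 targets of 18 listed, none passed, 1 was higher and 5 lower at an unadjusted p under 0.05 (all genes: 10.7% and 13.9%), and the median was -0.01. The 4 with the smallest p were all lower in KO. Aldh18a1, an enzyme of proline synthesis, had -0.61 ± 0.12, the translation inhibitor Eif4ebp1 -0.34 ± 0.10, and the serine pathway enzymes Shmt2 and Phgdh -0.34 ± 0.12 and -0.36 ± 0.13 (SE; limma adjusted p from 0.101 to 0.143). Without KO 2, limma called 2 of the 17 higher and 4 lower, against 10.3% and 11.5% of all genes. The 2 higher, named after their values were seen, were Vldlr, a lipoprotein receptor, at 0.54 (limma adjusted p = 0.0198) and Atf4 itself at 0.54 (limma adjusted p = 0.0199). With all arrays and median centring these were -0.21 and -0.39, and the other probe of Atf4 had -0.05 with loess. The widest positive differences of the list, Trib3 at 0.74 ± 0.33 and Chac1 at 0.68 ± 0.39 (SE), did not pass (limma adjusted p of 0.213 and 0.320).

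**Figure D5:**
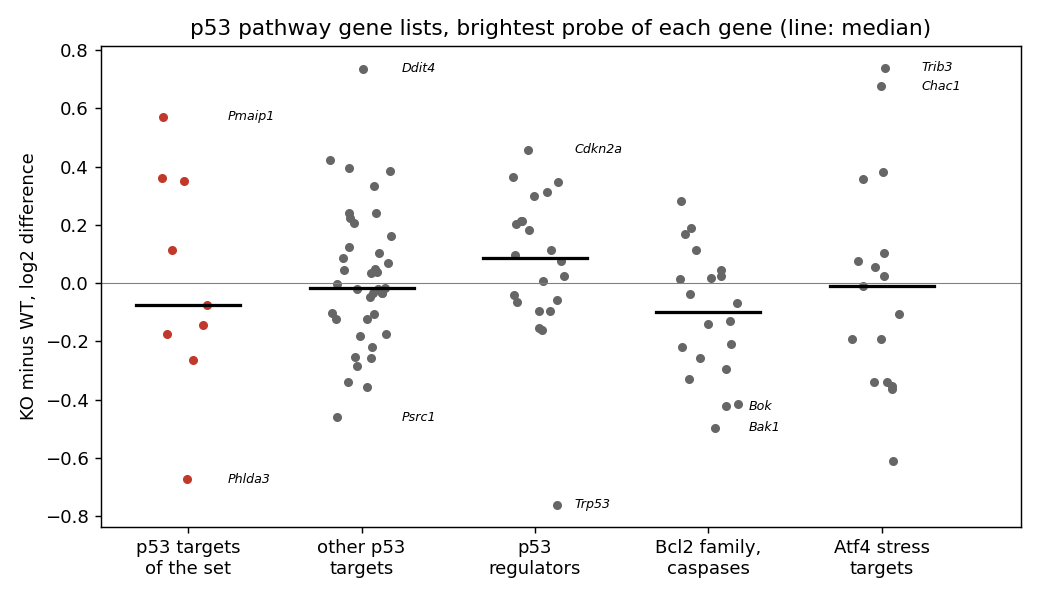
KO minus WT log2 difference at the brightest probe of each gene, for the 9 measured p53 targets described here (red) and 4 related lists (grey), with a line at each median. The 2 genes with the largest difference in size are named in each list, and all 5 medians lie between -0.10 and 0.09. Cdkn2a, which was detected in KO alone, is drawn among the regulators at its fitted value and was not tested.

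Each member's profile over the 8 arrays was set against 13355 other named genes, as a description of likeness only. The arrays share the Cy3 RNA and the slide. The gene most like Phlda3 was Sf3a1 (Pearson r = 0.997, Spearman rho = 1.00, n = 8 arrays), which encodes a splicing factor subunit. For Mdm2 it was Ss18l1 (r = 0.99), for Pmaip1 Fem1b (r = 0.99) and for Trp53inp1 Eif2s2 (r = 0.99). For Bbc3 it was Tfap2a (r = 0.98), a transcription factor, whose own log2 difference was -0.91. The others were Acbd5 for Zmat3 (r = 0.98), Commd9 for Sesn2 (r = 0.96), Rab2a for Ccng1 (r = 0.96) and Prmt1 for Bax (r = 0.91).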

How the data were processed

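The deposited scanner files hold median spot and background intensity values per channel, which the authors read with Feature Extraction 10.7.3.1 (Agilent), per the submitters' processing notes. Probes are annotated on mm9, per the file headers. Per the file headers, the authors' log10 ratio in those files sets Cy5 over Cy3 after background subtraction and dye normalisation. A value table for the whole series, also deposited, holds the same log10 ratios, with a largest difference of 0.00496, a median of 0 on 7 arrays and 0.0152 on KO 3, not centred further. Flags of 0 or 1 per spot are other values in the deposited files.

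From the intensities, normexp (offset 50) and loess within arrays (control spots at weight 0) gave log2 ratios in limma 3.58.1 under R 4.3.3. Mean signals are not among the columns, so median signals were taken. Flagged spots were left out and spots of a probe averaged. A probe was kept with Cy5 well above background on at least 4 arrays and with 3 or more values in each group. Of 37850 systematic names 21717 matched the RefSeq table (GRCm38.p6). The comparison of KO with WT used limma's moderated test (2-sided), adjusted by Benjamini-Hochberg across the kept probes, and adjusted p-values in the text come from this fit. A p-value here reflects only how these samples spread, which may be technical, and the number of arrays limits precision. Tested on simulated data for KO minus WT (28477 probes), limma recovered 84 of 100 probes changed by 1 and 99 of 100 changed by 2 on the log2 scale, with 9 false calls. The simulated noise was independent for each probe and array, so no whole array stood apart as KO 2 did. Changes as small as those of the members, at most 0.67 in size with all arrays, were not simulated. The recovery therefore does not describe the members.

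Named are all members, Dot1l, Cdkn1a, Trp53, Mdm4 and up to 4 genes with the smallest p from each of 4 lists, plus 1 gene most like each member. Hoxb7, Krt18, the 7 leukocyte markers, Vldlr, Atf4, Trib3 and Chac1 were named after their values were seen. The members, lists and alternatives were chosen with earlier results of these data known. The lists of endothelium (median log2 difference 0.22), erythroid (0.02), proximal tubule (-0.13), loop and distal tubule (0.11) and podocyte markers (-0.22) were read too. Alternatives were other background corrections, normalisations, filters and variance models, the scanner log ratio, the value table, a single value per gene, a block for replicate number, arrays left out and, chosen after seeing the data, each channel alone. Figures were drawn with matplotlib 3.10.9.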

Additional observations from a re-analysis of the deposited data

Results flagged for a closer look

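Of 55 groups of 4 arrays examined among the named probes, 4 had an array whose gap to its nearest neighbour was large against the group's whole range (above Dixon's 95% critical value for 4 values), and chance flags about 1 in 20. Phlda3 on KO 2 was at a log2 ratio of 0.62, with the other KO arrays between -0.38 and -0.21. Mdm4 on KO 2 was at -0.26, with the others between 0.01 and 0.06. Bax on WT 1 was at -1.26, with the other WT arrays between -0.78 and -0.69. Zmat3 on WT 3 was at -0.29, with the others between -0.55 and -0.51.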

How the results depend on the processing

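The count of member probes called was 0 in all but 3 of 23 alternatives. It was 4 with array weights, which gave KO 2 the lowest weight (0.345), and 4 without KO 2 and KO 3 together. Leaving out 1 array gave 0 to 4 member probes, with 4 only without KO 2. The count over all probes, 2 in the comparison itself, was 1 with an offset of 0, without background subtraction and with the mean over probes of a gene, and 5 with the scanner log ratio and the value table. It was 0 with median centring and Cy5 alone, 6 with scaling between arrays, 4 without the filter, 13 with an intensity trend and robust hyperparameters, 5949 with array weights and 7436 without KO 2 and KO 3. Leaving out 1 array gave 1 to 6692, the highest without KO 2 and 8 without KO 3. With replicate number as a block the count was 0. Same-numbered arrays correlated between -0.21 and 0.11 in their deviations from the group means, so the numbers were not taken to pair the samples.

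The median log2 difference of the members was -0.43 with median centring (all probes: -0.28), 0.089 with scaling between arrays, -0.15 without KO 2 and KO 3, and -0.16 to -0.020 with 1 array left out. Directions turned with median centring for Mdm2 (-0.11), Ccng1 (-0.19), Rpl11 (-0.63) and Dot1l (-0.18), with Cy5 alone for Ccng1 (-0.35) and Sesn2 (0.052), with scaling between arrays for Bax (0.089), without KO 1 for the dimmer Trp53inp1 probe (from -0.13 to 0.030 with 1 array left out), and for Mdm4 without KO 2 (0.0082), WT 2 (0.0061) or KO 2 and KO 3 (0.019), with a range from -0.14 to 0.0082 with 1 array left out. The cause was not tested. Pmaip1, Bbc3, Phlda3, Zmat3 and Trp53 kept their direction in all 23.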
